A study of Arabidopsis thaliana with 24 samples.

Results

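The major light-harvesting antenna of photosystem II is built from the LHCB1, LHCB2 and LHCB3 proteins, and their 9 genes in Arabidopsis thaliana were taken by gene ID from a deposited leaf expression table of 34218 genes. The set held 5 LHCB1 copies, 3 LHCB2 copies and the single LHCB3 gene. Of the 9 genes, 8 passed the filter on low values and were tested among 17788 genes. The remaining copy, LHCB1.5, was listed at 0 in all 24 libraries. After 3.5 h of strong light all 8 tested genes were lower in wild-type leaves, at 7.29% to 41.7% of their growth-light level, where 21.6% of all tested genes were called lower. In plants over-expressing BBX32 the fall was smaller for each of the 8 by a test of the difference, which was called in that direction for 6.95% of all tested genes. Against the wild type in growth light, 5 of the 8 were called lower in these plants (16.7% of all tested genes). In strong light 7 were called higher (10.9%), and LHCB1.4 was not. In the hy5-2 mutant no difference in the fall was called for any of the 8, beside 0.652% of all tested genes.

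Leaf messenger RNA was sequenced from 35-day-old plants grown in 150 µmol m-2 s-1 of light (low light, LL), and from plants of the same age given 1100 ± 100 µmol m-2 s-1 of white LED light for 3.5 h (high light, HL). The groups were BBX32-10 in HL and in LL, hy5-2 in HL and in LL, and Col-0 in HL and in LL, with 4 plants each and 1 library per plant, made from 4 of its fully expanded leaves. Short days of 8 h light and 16 h dark at 23 °C were used for all plants, and the HL treatment started 1 h after subjective dawn in the growth chamber itself. BBX32-10 over-expresses the B-box protein gene BBX32, hy5-2 is a null mutant of the light-signalling transcription factor gene HY5, and Col-0 is the wild type. Each genotype other than Col-0 was represented by a single line, so an effect of the gene and an effect of the line cannot be told apart, and the promoter that drives BBX32 is not given in the sources used here.

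LHCB1, LHCB2 and LHCB3 bind chlorophyll a, chlorophyll b and xanthophylls and assemble in the thylakoid membrane into trimers that pass excitation energy to the photosystem II core. LHCB1 is the most abundant trimer subunit, LHCB2 is the subunit whose phosphorylation by the kinase STN7 lets trimers serve photosystem I in state transitions, and LHCB3 occurs in trimers held close to the core and lacks the phosphorylation site. Messenger RNA of these nuclear genes is among the most abundant in green leaves, and its decline in excess light is a known part of acclimation.

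The LHCB1 copies lie in clusters and are close to each other in sequence, which bears on what each value can mean. LHCB1.2 (AT1G29910, chr1:10472280-10473502, minus strand), LHCB1.1 (AT1G29920, chr1:10474656-10475969, minus strand) and LHCB1.3 (AT1G29930, chr1:10477885-10479114, plus strand) are single-exon neighbours on chromosome 1 in the TAIR10.1 annotation. LHCB1.5 (AT2G34420, chr2:14522524-14523568, minus strand) and LHCB1.4 (AT2G34430, chr2:14524607-14525918, plus strand) stand head to head on chromosome 2. The deposited table gives the name LHCB1.1 to both AT1G29920 and AT1G29910, and calls AT2G34430 LHB1B1 and AT2G34420 LHB1B2. The coding sequences of the first 3 copies were 95.6% to 96.4% identical to each other, and LHCB1.4 was 92.5% identical to LHCB1.5 but 87.4% to 88.8% identical to the chromosome 1 copies. The 60 coding bases printed below are the stretch without gaps in which the 5 copies differ most, so they are not typical. LHCB1.1 differs from LHCB1.3 at 6 of these 60 bases, and at 31 of 804 over the whole coding sequence. Capitals mark bases unlike the LHCB1.3 copy, and 15 of the 60 positions vary among the 5 copies. The stretch begins at coding base 208 in the chromosome 1 genes, 205 in LHCB1.4 and 202 in LHCB1.5.
LHCB1.3: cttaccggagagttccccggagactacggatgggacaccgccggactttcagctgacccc
LHCB1.1: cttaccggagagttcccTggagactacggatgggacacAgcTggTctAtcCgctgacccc
LHCB1.2: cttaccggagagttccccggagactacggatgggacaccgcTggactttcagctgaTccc
LHCB1.4: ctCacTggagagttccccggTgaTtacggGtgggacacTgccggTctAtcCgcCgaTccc
LHCB1.5: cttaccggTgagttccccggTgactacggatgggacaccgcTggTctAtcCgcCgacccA

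LHCB2.1 (AT2G05100, chr2:1822990-1824480, minus strand) and LHCB2.2 (AT2G05070, chr2:1799234-1800472, minus strand) both lie on chromosome 2, with coding sequences 92.9% identical. LHCB2.4 (AT3G27690, chr3:10255906-10257489, plus strand) is 84.5% identical to LHCB2.1 and 84.7% to LHCB2.2. LHCB3 (AT5G54270, chr5:22038165-22039568, plus strand) has 3 exons and is no more than 73.1% identical in coding sequence to any of the other 8 genes. The 60 bases below are again the stretch without gaps in which the copies differ most. With capitals for bases unlike LHCB2.2, LHCB2.1 differs there at 8 positions and LHCB2.4 at 16.
LHCB2.2: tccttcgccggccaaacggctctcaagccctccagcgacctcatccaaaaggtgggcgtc
LHCB2.1: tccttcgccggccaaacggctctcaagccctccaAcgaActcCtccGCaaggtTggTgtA
LHCB2.4: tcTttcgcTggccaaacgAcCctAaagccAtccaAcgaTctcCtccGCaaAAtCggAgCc

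Reads that fall in stretches shared by copies cannot be given to one of them with certainty. Of all 50-base windows of a gene's exons, 20.5% in LHCB1.1, 10.6% in LHCB1.2, 17.0% in LHCB1.3 and 13.7% in LHCB1.4 also occurred unchanged in another gene, and the share was 20.2% in LHCB2.1 and 28.2% in LHCB2.2. At 150 bases the share was 0 in all copies other than LHCB2.2, where it was 0.302%, and the libraries held inserts of 250 to 300 bases. LHCB2.4 and LHCB3 shared no 50-base window with any gene. The values of the single LHCB1 and LHCB2 copies are therefore given with that uncertainty, while the family sums of FPKM depend on that split through the unequal lengths of the copies (1223 to 1314 bases in the 4 tested LHCB1 genes, 1143 to 1318 bases in LHCB2). The sums would also lack any read dropped for matching several genes. LHCB1.4 also shares 50-base windows with AT2G08665, a gene outside the family that was listed at 0 in every library.

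LHCB1.5 was listed at 0 FPKM in every library, and the 0 is read here only as a listing. Every base of its exon lies in an exon of AT2G08665, a long non-coding RNA gene annotated on the opposite strand at chr2:14522522-14523568, which was listed at 0 as well. Another gene on that opposite strand, AT2G34410, also overlaps LHCB1.5 and reached at most 8.79 FPKM in any library. Among 368 protein-coding genes whose exon bases all lie in exons of other genes, 351 (95.4%) were listed at 0 in all libraries, against 16.0% of 19821 genes with no such overlap. The LHCB1 sums below hold 4 copies for this reason. LHCB1.3, LHCB2.4 and LHCB3 overlap the ends of antisense genes by 108, 595 and 186 bases. Those antisense genes reached at most 19.8, 7.91 and 6.60 FPKM in any library. How reads in the overlapped bases were counted is not given. The levels of LHCB1.3, LHCB2.4 and LHCB3 may therefore be too low, which was not tested.

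Depth recovered from the steps of the deposited values was 35408723 to 49341933 fragments per library. BBX32 stood at 364 to 1049 FPKM in BBX32-10 libraries and at most 16.6 FPKM in hy5-2 and Col-0 libraries, and HY5 at no more than 0.929 FPKM in hy5-2 against at least 6.26 FPKM in Col-0, as the genotype labels say. HY5 was also higher in BBX32-10 LL, at 33.0 to 41.0 FPKM, than in Col-0 LL, at 6.26 to 8.36 FPKM. In HL it was at 30.7 to 46.5 FPKM in BBX32-10 and 17.5 to 24.4 FPKM in Col-0. BBX32-10 HL replicate 1 stood apart with 364 FPKM of BBX32 against 719 to 1049 in the other 3 plants of its group. How results that use it change without it is given beside many of them but not all. Values of BBX32-10 HL include that plant unless it is said to be left out. The leaf mesophyll genes RBCS1A and RCA were at 9674 to 20944 and 3841 to 7539 FPKM, and the root genes CASP1 and CASP2 did not exceed 0.346 FPKM. In such bulk leaf samples fewer cells of a type and less RNA per cell cannot be told apart.

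In Col-0 in LL the antenna genes were at the top of the expression range, and LHCB1.3 had the highest mean of all 17788 tested genes. FPKM (fragments per kilobase of transcript, scaled to the library total) corrects for length, so levels of different genes can be set side by side. LHCB1.3 was at 16829 ± 890 FPKM (SD, n = 4), followed by LHCB1.1 at 7167 ± 404, LHCB3 at 6940 ± 399 and LHCB1.2 at 6886 ± 386 FPKM. The libraries of LHCB1.3 did not overlap those of the next gene, while LHCB1.1, LHCB3 and LHCB1.2 overlapped each other in that order. LHCB2.1 followed at 4579 ± 198 FPKM, LHCB2.2 at 4141 ± 173, LHCB1.4 at 3497 ± 251 and LHCB2.4 at 1636 ± 181 FPKM, and no neighbours overlapped in this lower part of the order. Together the 8 genes took 6.24% to 6.82% of all fragments of a Col-0 LL library. The plot of levels by library shows the same 8 genes in all 6 groups.

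**Figure D1:**
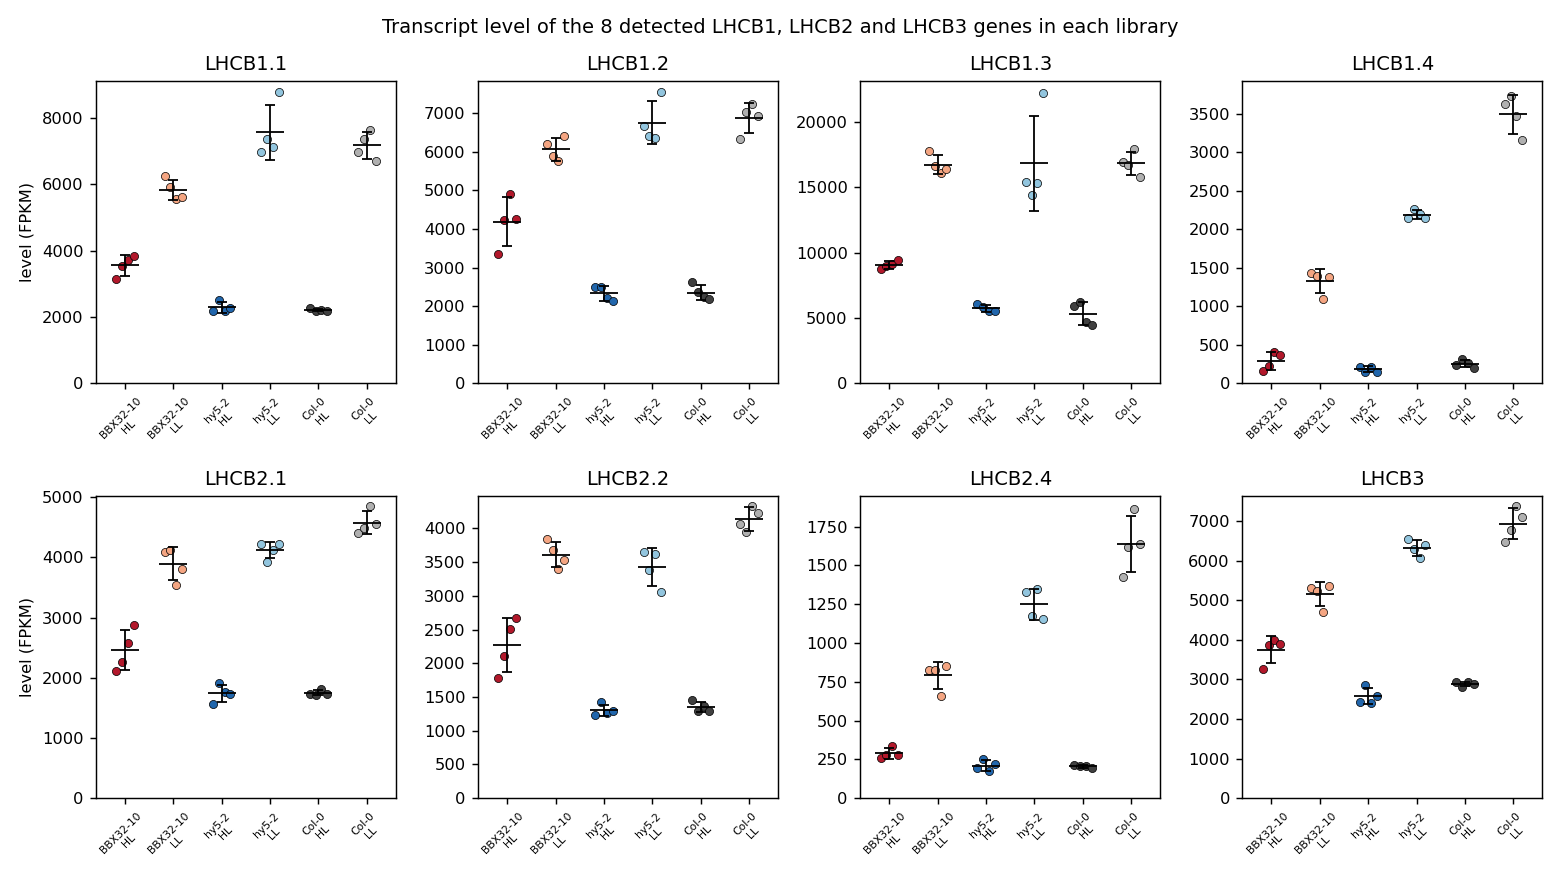
Level in FPKM (linear axis from 0) of each of the 8 tested genes in the 24 libraries; each point is 1 plant, the long bar is the group mean and the whiskers are 1 SD (n = 4). In each genotype all HL points lie below all LL points of the same gene, and the gap between the HL and LL points is narrower in BBX32-10 than in Col-0 for every gene.

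The first question was what 3.5 h of HL did to these transcripts in wild-type leaves. All 8 tested genes fell in Col-0 (limma, Benjamini-Hochberg adjusted p under 0.05 over 17788 genes), beside 21.6% of all tested genes that were called lower (27.6% on rescaled libraries). LHCB1.3 was at 5926, 6230, 4725 and 4461 FPKM in Col-0 HL, against 16899, 16718, 17934 and 15763 FPKM in Col-0 LL. All HL plants were below all LL plants for each of the 8 genes, a separation seen in 22% of tested genes in that direction. The log2 change of LHCB1.3 was -1.67 (SE 0.12, limma adjusted p 4.66e-10), where a log2 change is the difference of group means of log2(FPKM + 1).

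LHCB1.1 and LHCB1.2, the other chromosome 1 copies, changed by -1.70 (SE 0.09) and -1.55 (SE 0.10) on the log2 scale in Col-0. LHCB1.4, the chromosome 2 copy, was at 244, 312, 262 and 202 FPKM in Col-0 HL, against 3624, 3736, 3468 and 3158 FPKM in Col-0 LL. Its log2 change was -3.79 (SE 0.21, 95% interval -4.22 to -3.35, limma adjusted p 1.27e-11), an interval that does not meet those of the other LHCB1 copies, which together run from -1.92 to -1.34. By mean level it stood 407th among the tested genes in Col-0 HL and 23rd in Col-0 LL, so its place among leaf transcripts changed far more than that of LHCB1.3, which stood 5th and 1st.

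The LHCB2 genes divided in the same manner. LHCB2.1 was at 1737, 1717, 1811 and 1731 FPKM in Col-0 HL, against 4405, 4492, 4860 and 4557 FPKM in Col-0 LL, a log2 change of -1.39 (SE 0.09). LHCB2.2 changed by -1.62 (SE 0.10). LHCB2.4 was at 215, 205, 205 and 193 FPKM in Col-0 HL, against 1423, 1618, 1865 and 1638 FPKM in Col-0 LL, a log2 change of -2.99 (SE 0.11, limma adjusted p 6.49e-14). Here too the interval of the steep copy, -3.22 to -2.75, lay apart from those of its 2 relatives, which together ran from -1.82 to -1.21.

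LHCB3, the minor trimer subunit, had the smallest estimated change of the set in Col-0. It was at 2930, 2814, 2928 and 2895 FPKM in Col-0 HL, against 6473, 6783, 7393 and 7110 FPKM in Col-0 LL, a log2 change of -1.26 (SE 0.08, limma adjusted p 7.27e-11). Its 95% interval, -1.43 to -1.10, overlapped that of LHCB2.1, -1.57 to -1.21. Summed over copies, LHCB1 in Col-0 HL stood at 29.5% of its LL level, LHCB2 at 31.9% and LHCB3 at 41.7%. The median log2 change of the 8 genes was -1.64, beside 0.05 over all genes tested.

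In BBX32-10, the line that over-expresses BBX32, the fall was still present but smaller than in Col-0. In BBX32-10 all 8 genes fell in HL by limma, beside 8.85% of all tested genes called lower, and HL and LL plants did not overlap for any of them (9.21% of tested genes in that direction). The median log2 change was -0.70. All 8 remained called without BBX32-10 HL replicate 1, with a median of -0.63 and 8.29% of all tested genes called lower. In that case too no gene of the 8 overlapped between HL and LL (12% of tested genes in that direction). LHCB1.3 was at 8718, 8978, 9155 and 9456 FPKM in BBX32-10 HL, against 17750, 16637, 16071 and 16378 FPKM in BBX32-10 LL, a log2 change of -0.88 (SE 0.12, limma adjusted p 2.72e-05). The most abundant antenna transcript thus stood at 54.3% of its LL level in BBX32-10 and at 31.7% in Col-0.

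LHCB1.4 was at 156, 219, 409 and 363 FPKM in BBX32-10 HL, against 1439, 1395, 1099 and 1380 FPKM in BBX32-10 LL, a log2 change of -2.30 (SE 0.21, limma adjusted p 2.21e-07) that was -2.05 without HL replicate 1. LHCB2.4 was at 258, 277, 339 and 276 FPKM in BBX32-10 HL, against 824, 829, 659 and 852 FPKM in BBX32-10 LL, a log2 change of -1.46 (SE 0.11). These 2 copies kept the largest log2 changes of the set in BBX32-10 too. LHCB1.1, LHCB1.2, LHCB2.1 and LHCB2.2 changed by -0.71, -0.55, -0.67 and -0.69, and LHCB3 by -0.46 (SE 0.08, limma adjusted p 0.000322). LHCB3 was at 3260, 3858, 4001 and 3893 FPKM in BBX32-10 HL, against 5313, 5230, 4708 and 5364 FPKM in BBX32-10 LL, and its call was lost in a fit of BBX32-10 libraries alone (adjusted p 0.052).

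In hy5-2 the fall was of about the Col-0 size. All 8 genes fell in HL by limma, beside 20.4% of all tested genes called lower, with no overlap between HL and LL plants (16% of tested genes in that direction). LHCB1.3 was at 6091, 5822, 5546 and 5531 FPKM in hy5-2 HL, against 15390, 14437, 15287 and 22233 FPKM in hy5-2 LL, a log2 change of -1.53 (SE 0.12, limma adjusted p 3.65e-09). LHCB1.4 was at 217, 150, 212 and 145 FPKM in hy5-2 HL, against 2149, 2265, 2203 and 2148 FPKM in hy5-2 LL, and changed by -3.62 (SE 0.21). LHCB2.4 changed by -2.58 (SE 0.11) and LHCB3 by -1.30 (SE 0.08), and the median of the 8 genes was -1.53. The plot of HL responses sets the 3 genotypes side by side for each gene.

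**Figure D2:**
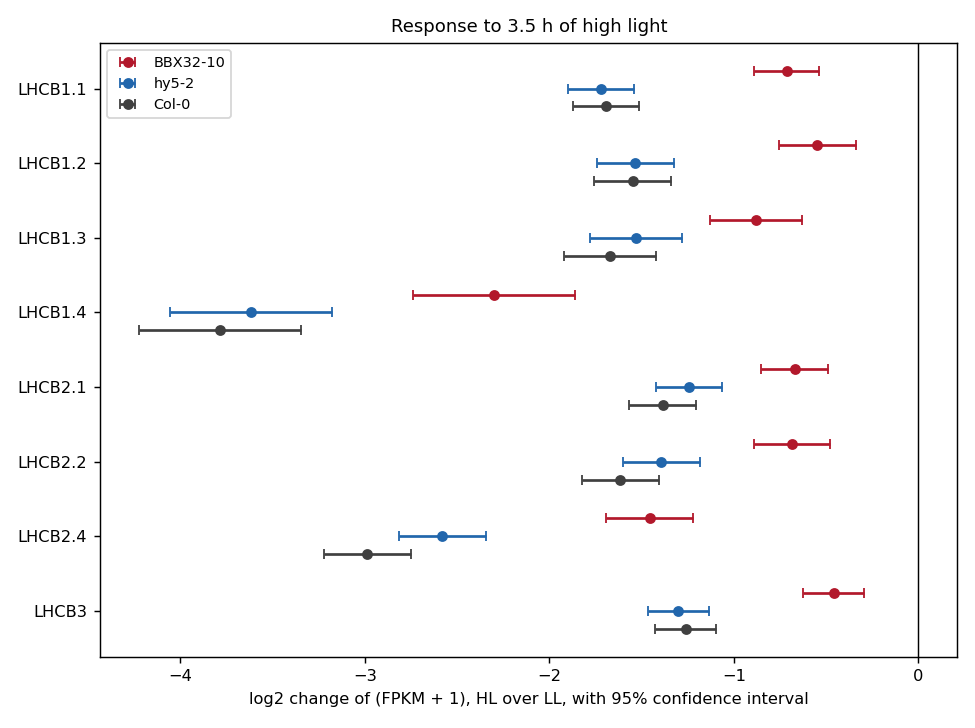
Log2 change of (FPKM + 1) between HL and LL for each tested gene in BBX32-10, hy5-2 and Col-0 (4 plants per group); points are limma estimates and bars 95% confidence intervals. LHCB1.4 and LHCB2.4 lie farthest to the left in every genotype, and the BBX32-10 interval lies to the right of the Col-0 interval for all 8 genes.

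Whether the HL response itself differed between genotypes was tested as an interaction, the response in the line minus the response in Col-0. For BBX32-10 the interaction was positive and called for all 8 genes (limma), beside 6.95% of all tested genes called in that direction. It ranged from 0.72 (SE 0.12, adjusted p 0.000358) for LHCB2.1 to 1.53 (SE 0.16, adjusted p 2.14e-06) for LHCB2.4. LHCB1.4 had 1.49 (SE 0.30, adjusted p 0.0014), LHCB1.3 had 0.79 (SE 0.17, adjusted p 0.00236) and LHCB3 had 0.80 (SE 0.11, adjusted p 6.22e-05). All 8 remained called in each of the 16 fits that left out 1 library, the fit without BBX32-10 HL replicate 1 among them, where the value for LHCB1.4 was 1.74 and 11.8% of all tested genes were called positive. On rescaled libraries that share was 10.5%. The call of LHCB1.3 was lost without the filter on low values (adjusted p 0.154). A positive interaction can come from a lower level in LL as well as from a higher level in HL. In BBX32-10 LHCB1.4 differed from Col-0 by a log2 change of -1.40 in LL and 0.08 in HL. For LHCB2.4 these values were -1.05 and 0.48, and for LHCB1.3 they were -0.01 and 0.78. For hy5-2 no interaction was called (limma), beside 0.652% of all tested genes, with 1 gene, LHCB2.4, at an unadjusted p under 0.05 and none by voom on recovered fragments. The hy5-2 values ran from -0.04 for LHCB3 to 0.41 for LHCB2.4 (95% interval 0.08 to 0.74, adjusted p 0.293), and both sets of interactions share the Col-0 libraries.

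Set against Col-0 in the same light, the genes of BBX32-10 stood lower in LL and higher in HL. In LL 5 of the 8 genes were called lower and none higher by limma, beside 16.7% of all tested genes called lower (21.5% on rescaled libraries). LHCB1.4 was at 1439, 1395, 1099 and 1380 FPKM in BBX32-10 LL, against 3624, 3736, 3468 and 3158 FPKM in Col-0 LL, a log2 change of -1.40 (SE 0.21, adjusted p 1.68e-05). LHCB2.4 had a log2 change of -1.05 (SE 0.11, adjusted p 2.01e-07), and its highest BBX32-10 LL plant, at 852 FPKM, was below its lowest Col-0 LL plant, at 1423 FPKM. These 2 genes, with the steepest HL response in Col-0, were also those most below Col-0 in BBX32-10 in growth light, and both comparisons use the Col-0 LL plants.

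The other calls in LL were smaller. LHCB3 had 4708 to 5364 FPKM in BBX32-10 LL and 6473 to 7393 FPKM in Col-0 LL (log2 change -0.43, SE 0.08, adjusted p 0.000176). LHCB1.1 changed by -0.30 (SE 0.09, adjusted p 0.0077 and 0.113 without the filter). LHCB2.1 changed by -0.24 (SE 0.09, adjusted p 0.0339) and was called in 3 of the 8 fits that left out 1 library, with adjusted p up to 0.114 and 0.148 without the filter. LHCB2.2 and LHCB1.2 did not pass the test at -0.20 and -0.18, although voom on recovered fragments called both, with -0.29 (adjusted p 0.025) for LHCB2.2 and -0.27 (adjusted p 0.0418) for LHCB1.2. LHCB1.3 stood at -0.01 (95% interval -0.26 to 0.24), with 16071 to 17750 FPKM in BBX32-10 LL and 15763 to 17934 FPKM in Col-0 LL. Plants of BBX32-10 and Col-0 did not overlap for 6 of the 8 genes, all lower, against 18.2% of tested genes in that direction; LHCB1.2 and LHCB1.3 overlapped.

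In HL 7 of the 8 genes were called higher in BBX32-10 than in Col-0 by limma, beside 10.9% of all tested genes called higher, and the same 7 did not overlap between the genotypes (7.38% of tested genes in that direction). LHCB1.2 was at 3353, 4224, 4899 and 4259 FPKM in BBX32-10 HL, against 2618, 2362, 2242 and 2199 FPKM in Col-0 HL, a log2 change of 0.82 (SE 0.10, adjusted p 6.16e-06). LHCB1.3 had 0.78 (SE 0.12), LHCB2.2 had 0.73 (SE 0.10) and LHCB1.1 had 0.68 (SE 0.09), while LHCB2.1 and LHCB2.4 had 0.48 each. LHCB3 had 0.37 (SE 0.08, adjusted p 0.00178), a call lost in a fit of these 8 libraries alone (adjusted p 0.0767) and without the filter (adjusted p 0.0671). LHCB1.4 was the exception at 0.08 (95% interval -0.35 to 0.52, adjusted p 0.815), with plants at 156 to 409 FPKM in BBX32-10 HL and 202 to 312 FPKM in Col-0 HL. Without BBX32-10 HL replicate 1, the lowest of its group for LHCB1.4, that value was 0.34 and still not called (adjusted p 0.147), and the 7 other genes kept their calls. In that fit 19.6% of all tested genes were called higher, and 21.8% did not overlap in that direction, while without BBX32-10 HL replicate 4 the share called higher was 6.9%.

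In hy5-2 no gene of the set was called against Col-0 in LL (0.371% of all tested genes were called) or in HL (2.41%). At an unadjusted p under 0.05 limma gave LHCB1.4, LHCB2.2 and LHCB2.4 in LL and LHCB1.4 and LHCB3 in HL, and voom on recovered fragments called none. LHCB1.4 had 2149, 2265, 2203 and 2148 FPKM in hy5-2 LL, against 3624, 3736, 3468 and 3158 FPKM in Col-0 LL, with no overlap, a log2 change of -0.67 (95% interval -1.11 to -0.23) and an adjusted p of 0.169. A fit of only these 8 libraries called it (adjusted p 0.0163). LHCB2.4 in LL was at 1153 to 1347 FPKM in hy5-2 and 1423 to 1865 FPKM in Col-0 (log2 change -0.38, adjusted p 0.143), and with LHCB2.1 and LHCB2.2 made 4 of the 8 genes whose plants did not overlap, all lower in hy5-2, beside 5.5% of tested genes in that direction. In HL no gene was free of overlap (12.4% of tested genes were), and the log2 changes ran from -0.50 for LHCB1.4 to 0.12 for LHCB1.3. The comparisons of BBX32-10 and of hy5-2 with Col-0 use the same Col-0 plants, so their values are not independent of each other.

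**Figure D3:**
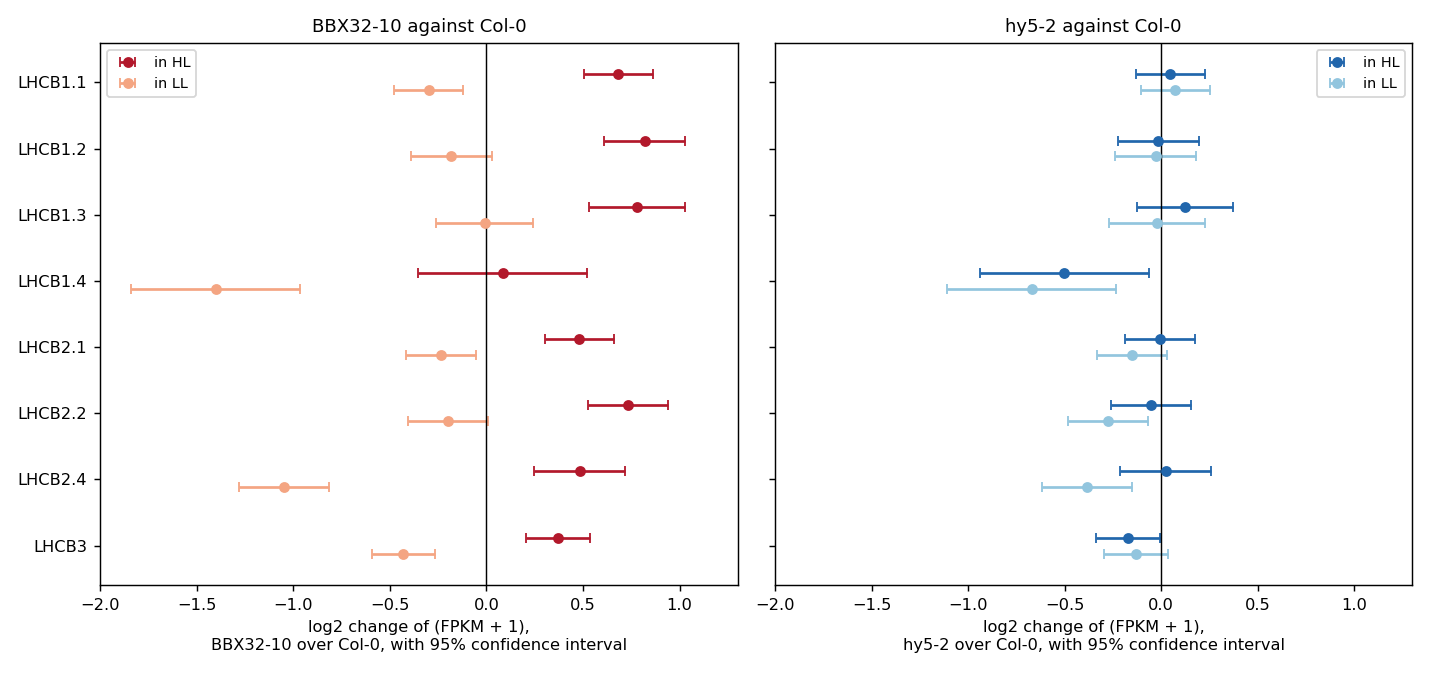
Log2 change of (FPKM + 1) of BBX32-10 (left) and of hy5-2 (right) over Col-0 in HL and in LL for each tested gene; points are limma estimates and bars 95% confidence intervals, not adjusted over genes (4 plants per group). For BBX32-10 the HL points lie at 0.08 to 0.82 and the LL points at -1.40 to -0.01; for hy5-2 the points lie between -0.67 and 0.12.

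The unequal changes of the copies altered the make-up of the LHCB1 and LHCB2 transcript pools. LHCB1.4 made up 1.02%, 1.29%, 2.25% and 2.03% of the summed LHCB1 FPKM in BBX32-10 HL, against 4.55%, 4.68%, 3.86% and 4.63% in BBX32-10 LL. Its share was 1.36% to 2.09% in hy5-2 HL and 5.27% to 7.43% in hy5-2 LL, and 2.21% to 2.81% in Col-0 HL and 9.56% to 10.7% in Col-0 LL. HL and LL shares did not overlap in any genotype, and in LL the 3 genotypes did not overlap each other. The shares in BBX32-10 HL without replicate 1 averaged 1.86 ± 0.501% (SD, n = 3). LHCB1.3 was the main copy throughout, with mean shares of 50.2% to 55.8% in 5 of the groups and 48.9% in Col-0 LL.

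LHCB2.4 contributed 5.79 ± 0.709% of summed LHCB2 FPKM in BBX32-10 HL and 9.52 ± 0.711% in BBX32-10 LL (SD, n = 4), and 5.65 ± 0.799% in BBX32-10 HL without replicate 1 (n = 3). It contributed 6.42 ± 0.734% in hy5-2 HL and 14.2 ± 0.526% in hy5-2 LL, and 6.19 ± 0.185% in Col-0 HL and 15.8 ± 1.04% in Col-0 LL. LHCB2.1 and LHCB2.2 divided the remainder, with LHCB2.1 the larger in all 6 group means. The level of LHCB3 relative to the LHCB1 sum was 21.2% to 22.8% in BBX32-10 HL, 16.5% to 18.0% in BBX32-10 LL, 22.2% to 26.0% in hy5-2 HL, 15.7% to 21.0% in hy5-2 LL, 25.4% to 32.0% in Col-0 HL and 19.1% to 21.8% in Col-0 LL. In each genotype the HL plants therefore held more LHCB3 per LHCB1 transcript than the LL plants, with no overlap. Shares within LHCB1 and LHCB2 rest on the split of reads among copies described above, and the effect of that split was not tested. The effect of the overlaps of LHCB1.3, LHCB2.4 and LHCB3 with antisense genes on these shares was not tested either.

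**Figure D4:**
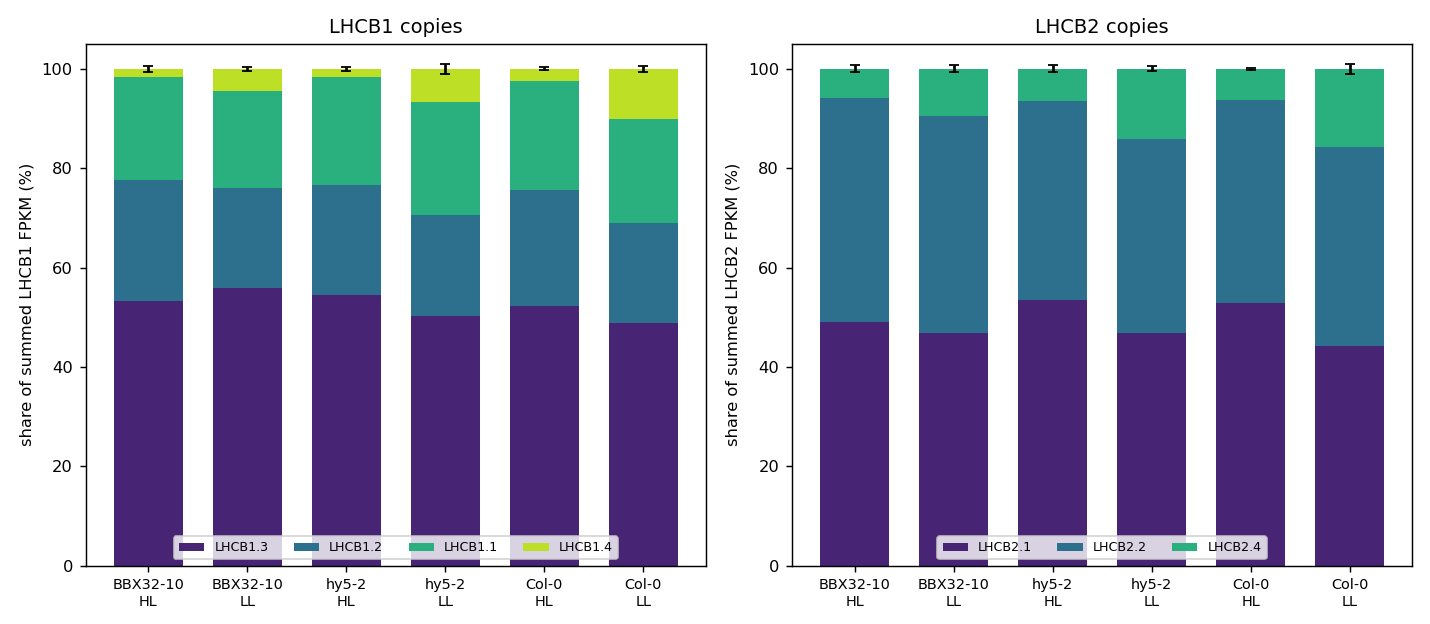
Mean share of each copy in the summed FPKM of LHCB1 (left) and LHCB2 (right) in each group of 4 plants, in percent; whiskers on the uppermost segment are 1 SD of the share of LHCB1.4 or LHCB2.4. The uppermost segment is thinner in HL than in LL in each genotype, and in LL it is thinnest in BBX32-10.

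All antenna genes of the set summed made up 2.83% to 3.43% of library fragments in BBX32-10 HL, 5.06% to 5.67% in BBX32-10 LL, 1.96% to 2.16% in hy5-2 HL, 5.65% to 6.92% in hy5-2 LL, 1.88% to 2.16% in Col-0 HL and 6.24% to 6.82% in Col-0 LL. The LHCB1 sum in HL stood at 57.2% of its LL level in BBX32-10, 31.6% in hy5-2 and 29.5% in Col-0. For the LHCB2 sum these percentages were 60.5% in BBX32-10, 37.0% in hy5-2 and 31.9% in Col-0, and for LHCB3 they were 72.8% in BBX32-10, 40.6% in hy5-2 and 41.7% in Col-0. By these ratios of group means LHCB1 stood lowest and LHCB3 highest in each genotype, an order that was not tested. The SDs of the percentages for LHCB1, LHCB2 and LHCB3, taken from the SDs of both groups, were 4.93, 9.81 and 7.76 in BBX32-10. In hy5-2 they were 4.91, 3.25 and 3.41, and in Col-0 3.40, 1.87 and 2.52. The hy5-2 value for LHCB1 includes LL replicate 4, whose LHCB1 sum was 40724 FPKM against 30494 to 31194 FPKM in its companions. The BBX32-10 value lay above both others for each of the 3 subunits. Without BBX32-10 HL replicate 1 the BBX32-10 percentages were 59.1% for LHCB1, 63.9% for LHCB2 and 76.0% for LHCB3.

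Across the 24 libraries the tested genes moved together. Pearson's r of log2(FPKM + 1) between 2 genes of the set ran from 0.907 for LHCB1.3 with LHCB1.4 to 0.986 for LHCB2.1 with LHCB2.2, with a median of 0.966, over points that share the 6 groups and the library scaling. After the group means were removed the range was -0.05 for LHCB1.3 with LHCB2.2 to 0.804 for LHCB2.1 with LHCB2.2, with a median of 0.518, and this median was 0.29 over the 23 libraries other than BBX32-10 HL replicate 1. Without that library the highest value was 0.826 for LHCB2.4 with LHCB3, genes that share no 50-base window with any other, while the median r with group means kept was 0.967. LHCB2.1 and LHCB2.2 share sequence, and what the sharing of reads adds to their r was not tested.

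The DNA before the annotated starts of the genes was also compared, and whether it bears on their shared movement was not tested. The promoters of 4 genes are shown: LHCB1.3 as the most abundant gene, LHCB1.4 and LHCB2.4 as those with the largest change, and LHCB2.2 as a contrast to LHCB2.4. Each line gives 250 bases up to the annotated start, in the direction of the gene, at chr1:10477635-10477884 (plus strand), chr2:14524357-14524606 (plus strand), chr3:10255656-10255905 (plus strand) and chr2:1800473-1800722 (minus strand) of TAIR10.1 from RefSeq. Capitals mark CCAATC, the core of a CCAAT box, in LHCB1.3, LHCB2.4 and LHCB2.2, the G-box CACGTG in LHCB2.4, a sequence bound by bZIP and bHLH factors, and AAAAATCT, a sequence bound by the clock factor CCA1, in LHCB1.4.
LHCB1.3: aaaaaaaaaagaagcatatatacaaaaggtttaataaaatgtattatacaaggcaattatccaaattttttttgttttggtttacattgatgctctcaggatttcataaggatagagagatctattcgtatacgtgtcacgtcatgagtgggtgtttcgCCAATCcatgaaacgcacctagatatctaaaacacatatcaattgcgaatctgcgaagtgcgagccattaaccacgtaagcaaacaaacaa
LHCB1.4: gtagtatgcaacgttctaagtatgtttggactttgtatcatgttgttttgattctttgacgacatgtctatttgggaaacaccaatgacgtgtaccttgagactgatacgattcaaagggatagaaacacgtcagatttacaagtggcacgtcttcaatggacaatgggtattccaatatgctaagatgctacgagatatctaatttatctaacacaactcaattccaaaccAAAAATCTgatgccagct
LHCB2.4: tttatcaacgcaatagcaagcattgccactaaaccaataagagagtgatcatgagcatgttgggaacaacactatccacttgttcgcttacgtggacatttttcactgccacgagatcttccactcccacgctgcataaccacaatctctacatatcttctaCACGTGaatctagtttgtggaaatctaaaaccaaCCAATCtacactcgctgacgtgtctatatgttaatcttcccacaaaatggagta
LHCB2.2: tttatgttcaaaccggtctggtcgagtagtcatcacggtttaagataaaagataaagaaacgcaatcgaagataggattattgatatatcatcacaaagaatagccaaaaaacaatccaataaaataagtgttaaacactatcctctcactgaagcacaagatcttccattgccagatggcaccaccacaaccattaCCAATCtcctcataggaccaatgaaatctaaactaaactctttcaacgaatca

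Both strands of the 27443 such windows of protein-coding genes were searched. CCAATC occurred in 5 of the 9 windows, those of LHCB1.3, LHCB1.5, LHCB2.1, LHCB2.2 and LHCB2.4, and in 10.2% of all windows; in all 5 it read in the direction of the gene and ended 48 to 86 bases before the start. The G-box CACGTG was found in LHCB2.4 alone of the set and in 6.49% of all windows, while its core ACGT, which every G-box contains, was in 6 of the 9 and in 44.1% of all windows. AAAAATCT was found in LHCB1.1 and LHCB1.4 and in 6.69% of all windows, and the I-box GATAAG in LHCB2.1 alone and in 12.3%. The evening element AAAATATCT and AAACAATCT, another sequence bound by CCA1, were in none of the 9 windows and in 2.36% and 0.805% of all windows. LHCB1.4 and LHCB2.4, with the largest changes in HL, shared no motif of this search other than ACGT, and LHCB1.3 and LHCB3 held ACGT as well.

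The other antenna genes were examined beside the trimer genes, since minor antenna proteins join the trimers to the core and photosystem I has its own antenna. Of 6 genes for minor or related photosystem II antenna proteins, 4 fell and 2 rose in HL in Col-0 (limma), where 21.6% of all tested genes were called lower and 30% higher, with a median log2 change of -1.01. LHCB4.2, a CP29 protein, fell to 613 ± 39.5 FPKM in Col-0 HL, against 2539 ± 161 FPKM in Col-0 LL (SD, n = 4). LHCB4.3, also of the CP29 family, rose to 272 ± 10.9 FPKM in Col-0 HL, against 65.2 ± 10.4 FPKM in Col-0 LL (log2 change 2.06, SE 0.35, adjusted p 4.13e-05). In BBX32-10 LHCB4.3 was at 18.9 to 159 FPKM in HL and at most 13.0 FPKM in LL, below Col-0 by limma in both lights with log2 changes of -2.19 and -2.39. The 159 FPKM is that of HL replicate 1, and the other 3 plants were at 18.9 to 74.9 FPKM (log2 change -2.66 against Col-0 in HL without that plant). In HL it thus stood below Col-0 in BBX32-10, where 7 of the trimer genes stood above, and in LL it was lower, as 5 of the trimer genes were. Its response to HL was not called different between BBX32-10 and Col-0 (interaction 0.21, adjusted p 0.825, and -0.27, adjusted p 0.642, without HL replicate 1).

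Of 6 photosystem I antenna genes, 5 fell and none rose in HL in Col-0 (21.6% and 30% of all tested genes), with a median log2 change of -0.93. LHCA4 fell by 1.26 on the log2 scale and LHCA2 by 1.00, and LHCA6, which helps to join the NDH complex to photosystem I, did not pass the test at -0.08. In BBX32-10 2 of the 6 fell, beside 8.85% of all tested genes, with a median of -0.23. The interaction of BBX32-10 with HL was called positive for 4 of the 6 (median 0.71), beside 6.95% of all tested genes. For the minor antenna list the interaction was positive for 4 genes and negative for 1, beside 6.95% and 12.9% of all tested genes, with 1.49 for LHCB4.2 (SE 0.19, adjusted p 1.87e-05). Each of these counts was the same without BBX32-10 HL replicate 1, and LHCB4.2 then had 1.66. In hy5-2 no gene of either list was called against Col-0 in LL or HL or in the interaction by limma or by voom, where LHCB4.2 in LL and in the interaction and LHCB7 in HL had an unadjusted p under 0.05. Over all genes tested the median log2 change was 0.05 for HL in Col-0, 0.02 for HL in BBX32-10 and -0.03 for the interaction of BBX32-10 with HL.

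**Figure D5:**
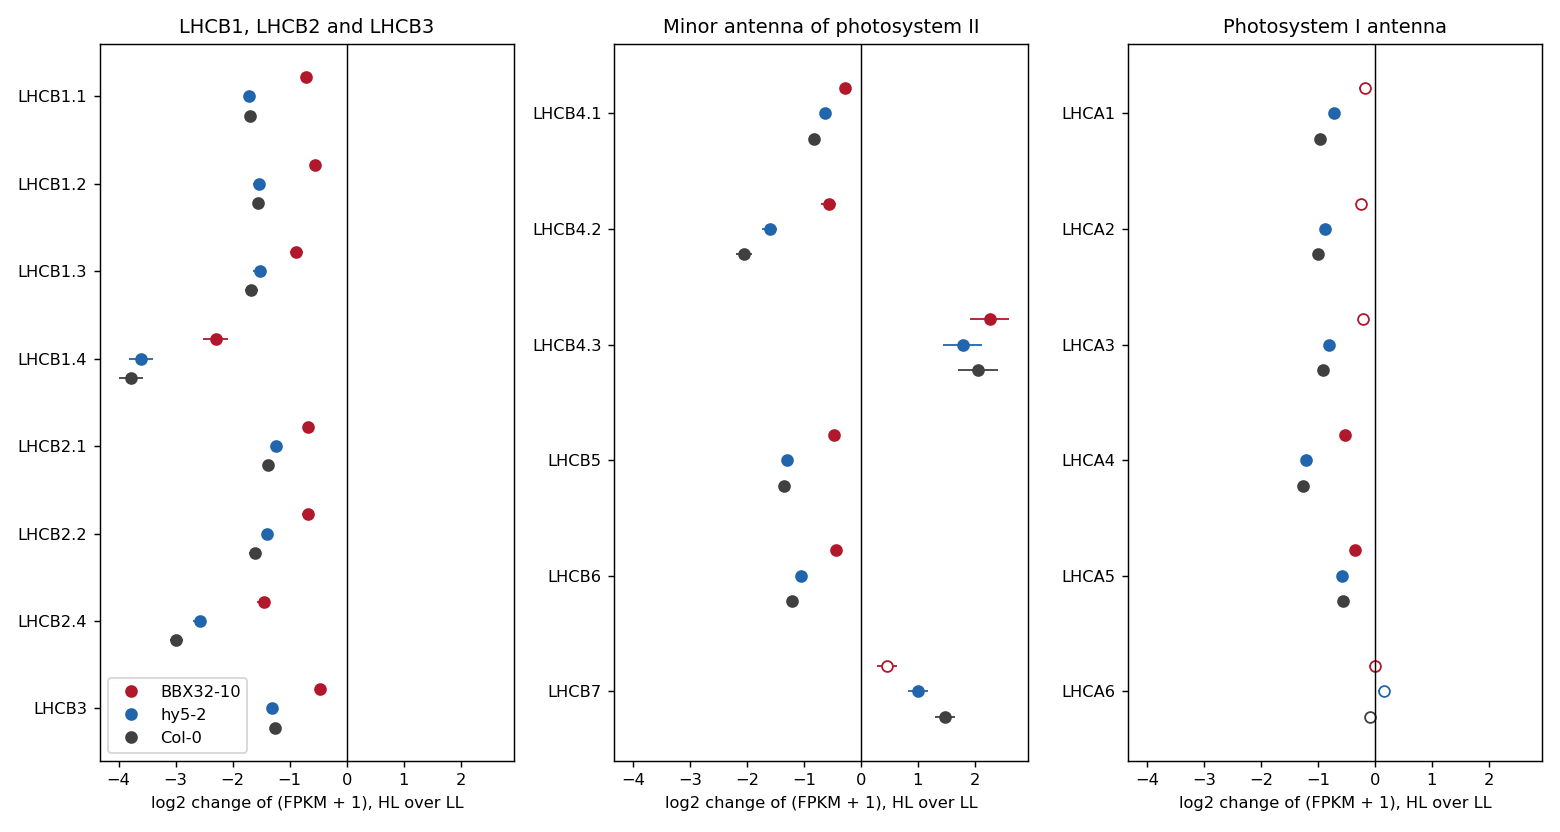
Log2 change of (FPKM + 1) between HL and LL of the trimer genes (left), the minor photosystem II antenna (middle) and the photosystem I antenna (right) in BBX32-10, hy5-2 and Col-0; points are limma estimates, lines 1 SE, filled points adjusted p under 0.05 and open points not called. LHCB4.3 and LHCB7 lie to the right of 0 in contrast to the other photosystem II antenna genes, at 2.06 and 1.48 in Col-0.

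Genes that serve the trimer proteins did not move as 1 block. Of 5 genes for import and membrane insertion, 2 fell in HL in Col-0 (limma), beside 21.6% of all tested genes. cpSRP43, which carries antenna proteins through the stroma, fell to 137 ± 5.66 FPKM in Col-0 HL, against 279 ± 16.6 FPKM in Col-0 LL (log2 change -1.02, SE 0.07), and LTD, a stromal targeting factor, changed by -0.20. cpSRP43 showed the trimer genes' pattern in BBX32-10, with a log2 change against Col-0 of 0.39 in HL and -0.26 in LL and an interaction of 0.65 (SE 0.10, adjusted p 0.000132), which was 0.70 without BBX32-10 HL replicate 1. cpSRP54, CPFTSY and the membrane insertase ALB3 had 0.08, -0.04 and -0.05 for HL in Col-0 and were not called.

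Of the 3 genes for phosphorylation of the antenna, the kinase STN7 fell slightly, by 0.28 on the log2 scale (SE 0.07, adjusted p 0.00259), to 68.2 ± 3.51 FPKM in Col-0 HL, against 82.9 ± 3.12 FPKM in Col-0 LL. STN7 was also lower in BBX32-10 than in Col-0 in both lights, with log2 changes of -0.29 in HL and -0.49 in LL. STN8 had 0.22 for HL in Col-0 and did not pass the test. Of 7 genes for chlorophyll b synthesis and breakdown, 3 fell and 2 rose in HL in Col-0, beside 21.6% and 30% of all tested genes, so that the share that rose was near that of all genes. CAO, the enzyme that makes chlorophyll b, fell to 73.2 ± 3.15 FPKM in Col-0 HL, against 180 ± 9.52 FPKM in Col-0 LL (log2 change -1.28, SE 0.08), and NYC1, which begins chlorophyll b breakdown, rose by 1.34 on the log2 scale (SE 0.14). In BBX32-10 both responses were smaller, with interactions of 0.52 for CAO (adjusted p 0.00205) and -0.75 for NYC1 (adjusted p 0.00887), each still called without BBX32-10 HL replicate 1.

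Of 8 regulator genes, chosen for roles in antenna gene expression, plastid signalling, the clock or light signalling, 4 rose and 4 fell in HL in Col-0, beside 30% and 21.6% of all tested genes. GLK1, an activator of antenna genes, changed by -0.35 (SE 0.11, adjusted p 0.0076) in HL in Col-0 and by -0.62 (SE 0.11, adjusted p 0.000291) in BBX32-10, and the difference between the 2 responses was not called (interaction -0.26, adjusted p 0.235). In LL it was at 340 ± 32.8 FPKM in BBX32-10, above 255 ± 24.4 FPKM in Col-0 (log2 change 0.41, adjusted p 0.00361), while 5 of the trimer genes were lower there. BBX32 and HY5, whose own levels the 2 lines alter, had the largest changes of the list for HL in Col-0, at 1.91 and 1.41. The lists were chosen with earlier results of these data known, and their counts are a description.

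The genes most like the trimer genes were sought by Pearson's r with the mean log2(FPKM + 1) of the 8 genes over the 24 libraries, points that share the groups and the scaling. The closest 5 were LHCA4 at 0.992, cpSRP43 at 0.987, LHCB5 at 0.987, LHCB6 at 0.987 and CAO at 0.986. With group means removed the closest were NLP4 at 0.840, SBT5.6 at 0.813, cpSRP43 at 0.812, FUT13 at 0.811 and SBP1 at 0.804. cpSRP43 (AT2G47450, named CAO in the deposited table like AT1G44446) was the 1 gene on both lists. Without BBX32-10 HL replicate 1 the closest 5 by level were the same genes, at 0.985 to 0.992. With group means removed cpSRP43 was then the closest, at 0.768, and none of the other 4 was among the closest 5.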

How the data were processed

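Messenger RNA levels were measured in 24 leaf libraries, and the values used are FPKM as deposited by the authors for 34218 genes. The submitters' processing notes name CASAVA, HISAT2 2.0.5, HTSeq 0.6.1, DESeq2 1.20.0, DESeq and the TAIR10 build, with no role or order given. Strand use and the handling of reads that match several genes are not given in the sources used here. Genes with at least 1 FPKM in at least 4 libraries (17788) were fitted in limma 3.58.1 (R 4.3.3) on log2(FPKM + 1) with 6 group means, 18 residual degrees of freedom and a mean trend in the variance. P-values were adjusted by the Benjamini-Hochberg method within each comparison, with calls made under 0.05. Fold changes on the log2(FPKM + 1) scale understate the change of low genes.

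The steps of the FPKM values came out as whole fragments, within 0.05, for 98.3% of the 25238 genes not listed at 0 when the mean length of the annotated transcripts was used, and for the other 440 with another whole length. These fragments gave the depths and the limma voom alternative. Rescaled libraries, other filters, another pseudocount, fits of the compared libraries alone, a replicate block and fits without 1 library were the other alternatives; levels, shares, related lists and correlations without BBX32-10 HL replicate 1 were an alternative chosen after seeing the data. The fitting code was tested on simulated data. Of the 36 pairs of libraries within groups none agreed within sampling noise (chi-square per degree of freedom 14.8 to 232.7).

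Sequences and positions come from the TAIR10.1 genome and annotation of RefSeq (Python 3.11.15, Biopython 1.88), where 32548 gene IDs matched and 99.95% of them had the table's start and end. The 9 genes and the related lists were chosen with earlier results of these data known. Named from each list were the 2 tested genes with the largest change for HL in Col-0, plus STN7, cpSRP43, CAO and GLK1; LHCA6, LHCB7, cpSRP54, CPFTSY and ALB3 were named after their values were seen.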

Additional observations from a re-analysis of the deposited data

Results flagged for a closer look

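The 8 genes and the LHCB1, LHCB2 and all-gene sums gave 66 sets of 4 values over the 6 groups of plants. Each set was examined for a plant far from its 3 companions, and 5 held one. Chance alone gives about 1 in 20 for a single set. The sets share plants and the sums hold the same genes, so the count of 5 cannot be judged against that share. LHCB1.3 was at 22233 FPKM in hy5-2 LL replicate 4 and at 14437 to 15390 FPKM in the other 3 plants. The same plant was the highest of its group for the LHCB1 sum, at 40724 FPKM against 30494 to 31194 FPKM, and for the sum of all 8 genes, at 55547 FPKM against 45282 to 46961 FPKM. LHCB2.4 was at 659 FPKM in BBX32-10 LL replicate 3 and at 824 to 852 FPKM in the other 3 plants. LHCB1.1 was at 2271 FPKM in Col-0 HL replicate 1 and at 2184 to 2199 FPKM in the other 3 plants, a gap that is small beside the difference between HL and LL.

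The HL response differed between BBX32-10 and Col-0 for all 8 tested genes by limma's interaction term. The log2 difference was 1.49 for LHCB1.4, 0.98 for LHCB1.1, 1.00 for LHCB1.2 and 0.79 for LHCB1.3. It was 1.53 for LHCB2.4, 0.93 for LHCB2.2, 0.72 for LHCB2.1 and 0.80 for LHCB3. All 8 were positive.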

How the results depend on the processing

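Under settings that keep all libraries of a comparison, 482 log2 changes of the 8 genes kept direction and call, 11 changed sign, 5 gained a call and 6 lost one. The number of the 8 genes called lower in BBX32-10 LL against Col-0 LL was 5, with 3 without the filter, 6 on rescaled libraries and 7 by voom, and 4 to 5 with 1 library left out. In hy5-2 LL against Col-0 LL the number was 0, and 1 in a fit of the compared libraries alone. For the other comparisons no setting moved the number of the 8 genes called by over 1.5 times.

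Counts over all genes moved by over 1.5 times in the cases that follow. Without BBX32-10 HL replicate 1 the genes called higher were 3479 for BBX32-10 against Col-0 in HL (1932 with all libraries) and 2092 for its interaction (1236), and without BBX32-10 HL replicate 4 the first count was 1228. The fit of the compared libraries alone called 1982 genes for HL in BBX32-10 (3487 with all libraries) and 1940 for BBX32-10 against Col-0 in HL (4199). For hy5-2 against Col-0 in HL (428) it called 648, voom 257 and rescaled libraries 258, and the range with 1 library left out was 240 to 382, lowest when Col-0 HL replicate 4 was absent. For the interaction of hy5-2 (116) it called 292, voom 39 and rescaled libraries 45, and leaving out Col-0 HL replicate 4 gave the lowest count, 63, and leaving out hy5-2 LL replicate 4 the highest, 317. For hy5-2 against Col-0 in LL (66) counts ran from 27, where hy5-2 LL replicate 4 was left out, up to 91, where replicate 1 of that group was, and were 29 to 35 without any 1 Col-0 LL replicate. The split into higher and lower calls also moved. For HL in Col-0 it was 4631 higher and 4907 lower on rescaled libraries and 4543 and 4837 by voom (5340 and 3842 as deposited). Rescaling gave 3488 higher and 3831 lower for BBX32-10 in LL (4589 and 2974 as deposited), 1862 and 1851 for its interaction (1236 and 2288), 94 and 164 for hy5-2 in HL (62 and 366) and 9 and 36 for the hy5-2 interaction (5 and 111). Voom gave 15 higher and 38 lower for hy5-2 in LL (31 and 35). The cause was not tested.

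The HL level as a percentage of LL moved from the family sum by more than its spread for single copies. In BBX32-10 it was 69.0% for LHCB1.2, 21.6% for LHCB1.4 and 36.4% for LHCB2.4. In hy5-2 it was 8.25% for LHCB1.4, 42.3% for LHCB2.1 and 16.8% for LHCB2.4. In Col-0 it was 34.2% for LHCB1.2, 7.29% for LHCB1.4, 38.2% for LHCB2.1 and 12.5% for LHCB2.4.

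Changes of sign occurred only for values that no setting called. In hy5-2 against Col-0 in LL, LHCB1.3 was at 0.000895 by voom. In hy5-2 against Col-0 in HL, rescaling and voom gave 0.0937 and 0.0966 for LHCB2.1, 0.0849 and 0.0857 for LHCB1.2 and 0.0484 and 0.0507 for LHCB2.2. For the interaction of hy5-2 they gave 0.0395 and 0.0393 for LHCB3 and 0.0539 and 0.0527 for LHCB1.1. With 1 library left out, BBX32-10 against Col-0 ran from -0.0408 to 0.0213 for LHCB1.3 in LL and from -0.119 to 0.341 for LHCB1.4 in HL. For hy5-2 against Col-0 the range was -0.00122 to 0.11 for LHCB1.1 and -0.161 to 0.0462 for LHCB1.3 in LL, and -0.0501 to 0.0366 for LHCB1.2, -0.0523 to 0.0426 for LHCB2.1 and -0.0755 to 0.112 for LHCB2.4 in HL. For the hy5-2 interaction it was -0.0718 to 0.0475 for LHCB1.1 and -0.0207 to 0.0697 for LHCB1.2.

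The correlation between same-numbered plants of their deviations from the group means ran from -0.529 to 0.471 over all pairs. In BBX32-10 against Col-0 in LL (r 0.0328 to 0.137) the same-numbered plant was the best match for 3 numbers. This was also so in hy5-2 against Col-0 in HL (r -0.0651 to 0.471). In the HL responses and the other comparisons with Col-0 it was the best match for at most 1 number. Whether same-numbered plants share more than a number was not tested. With the replicate number as a block the calls among the 8 genes were 8, 8 and 8 for HL in BBX32-10, hy5-2 and Col-0, 5 and 7 for BBX32-10 in LL and HL, 0 for both hy5-2 comparisons, 8 for the BBX32-10 interaction and 0 for that of hy5-2. Over all genes the block fit called between 52 and 8949 per comparison.

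Limits of these data are the single line per genotype, the single time point, the sharing of reads among copies, and the overlaps with antisense genes. LHCB1.5 is not measured by these values. The FPKM scale divides by the library total, so a change in the whole amount of messenger RNA per leaf is not seen.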
